A study of Danio rerio with 16 samples.

Results

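PCB153 is a persistent polychlorinated biphenyl with ortho-placed chlorines. The results below describe how the RNA of whole zebrafish larvae changed across 3 concentrations of it, from 0.1 over 1 to 10 µM, with the solvent control kept out of the fit. The slope of each gene's level on log10 concentration was fitted over the 12 exposed libraries, which are 12 of the 16 libraries of the series, and no sorting, genotype or cell type entered the choice. Leaving the 4 controls out means that no difference in how control larvae were handled or collected can enter a slope. The 4 groups were 0.1% DMSO and PCB153 at 0.1, 1 and 10 µM, each with 4 libraries that the submitters call biological replicates. All larvae were exposed from 4 to 120 hours after fertilization and were 5 days old at collection. Neither strain, clutch nor the number of larvae per library is known here, so p-values measure the spread between these libraries, whatever its source. Genes with at least 1 CPM (counts scaled to 1e6 per library) in at least 4 of the 12 libraries were tested, which left 20610 of 32105.

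Chlorines at ortho positions twist the rings out of one plane, and for that reason PCB153 is a weak ligand of the aryl hydrocarbon receptor, the sensor of planar dioxins that drives CYP1A. In mammals PCBs of this kind are known instead as activators of the xenobiotic receptors CAR and PXR, which drive cytochrome P450 genes of families 2 and 3 in the liver. Larvae of this age live on the last of their yolk, their organs are in place, and feeding, fasting and the day-night cycle all act on their transcripts. By its title, the series is about circadian rhythm and metabolism.

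Summed gene counts ranged from 8069225 to 15531744 over the 16 libraries, and the lowest was 1 µM replicate 1. Reads that fell in no annotated gene on the counted strand, the outside-gene share, made up 31.4% to 35.5% of uniquely aligned reads in DMSO, 36.2% to 38.6% at 0.1 µM, 35.1% to 40.4% at 1 µM and 31.7% to 33.3% at 10 µM. Across the 12 exposed libraries the outside-gene share fell by 2.39 percentage points per 10-fold PCB153 (exact permutation test over 34650 arrangements, 2-sided p = 0.0113, adjusted p = 0.0339 over 6 library measures). The 10 µM libraries lay below all 8 other exposed ones, and the shares at 1 and 0.1 µM overlapped. The share of reads counted as ambiguous between genes rose by 0.0247 percentage points per 10-fold (p = 0.00531, adjusted p = 0.0319 in the same exact test). It has the same total as the outside-gene share, which raises it where that share falls, so the 2 differences are not independent. How much of the rise follows from the shared total was not tested. Summed counts, genes detected, the share of reads not uniquely aligned and the share of the top 10 genes had adjusted p of 0.45 to 0.67. Reads not uniquely aligned reached 57.7% in 0.1 µM replicate 3, against 28.1% to 45.4% in the other 0.1 µM libraries. As in whole animals, transcripts of skeletal muscle (84810 to 108618 CPM summed over 58 genes in the 16 libraries), lens, epidermis, neurons, liver and pancreas were all present.

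**Figure D1:**
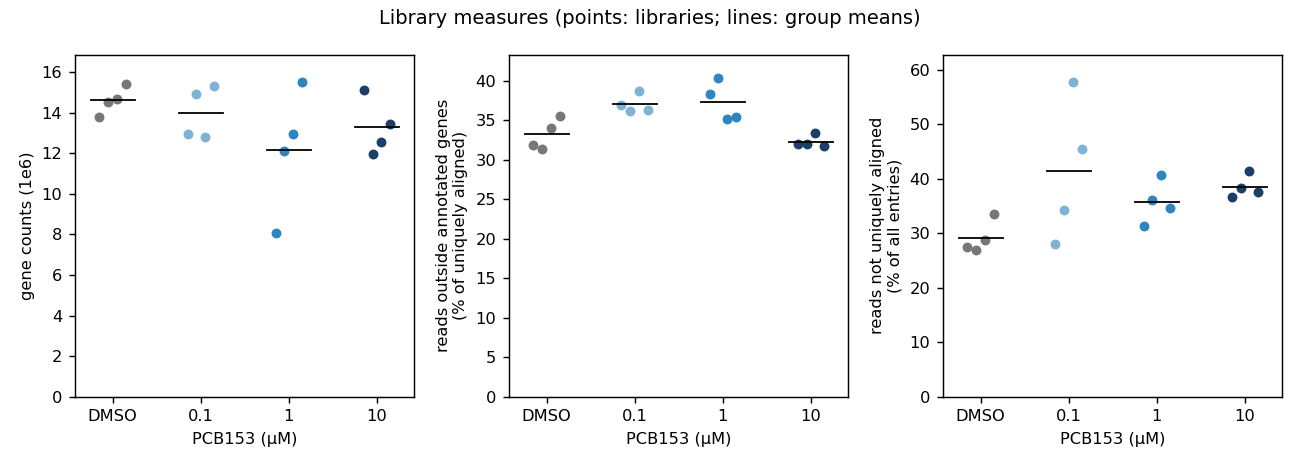
Summed gene counts in units of 1e6 (left), reads outside annotated genes as a percentage of uniquely aligned reads (middle) and reads not uniquely aligned as a percentage of all entries (right), for each library by PCB153 concentration. Points are libraries and lines are group means of 4 libraries. The 10 µM libraries have 31.7% to 33.3% of reads outside genes, below all other exposed libraries.

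Within the exposed larvae 1774 genes rose with concentration (8.61% of the genes tested) and 1800 fell (8.73%), together 3574 (17.3%), at an adjusted p under 0.05 in edgeR's quasi-likelihood test with Benjamini-Hochberg adjustment. Throughout, "rose" and "fell" refer to this test, a slope is in log2 units per 10-fold PCB153 with its standard error, and a fold is 10 over 0.1 µM from the fitted slope. Most changes were small. The median fold of 10 over 0.1 µM was 1.3 among rising genes and 0.745 among falling genes, and 74 rising and 81 falling genes reached a 2-fold difference. For 2373 genes (11.5%) all 4 libraries of 10 µM were above all 4 of 0.1 µM, and for 2095 (10.2%) all 4 were below, together 4468 (21.7%). In 50 genes (0.243%) all 12 libraries stood in the order of the concentrations rising, and in 41 (0.199%) in the falling order, together 91 (0.442%). The median step of the rising genes was 0.15 (log2) between 1 and 0.1 µM and 0.21 between 10 and 1 µM, and that of the falling genes was -0.19 and -0.22. A departure from a straight line was called for 46 genes with 1 µM above the mean of the other concentrations (0.223%) and for 14 with 1 µM below it (0.0679%).

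These counts fell most without 10 µM replicate 1 or 2, among the fits that left out 1 library, and they move with the outside-gene share. Without 10 µM replicate 1, 1139 genes rose and 980 fell, and without 10 µM replicate 2, 981 rose and 872 fell. Without 10 µM replicate 3, 1595 rose and 1648 fell, and without 10 µM replicate 4, 1396 rose and 1343 fell. Without 0.1 µM replicate 2, 1289 rose and 1015 fell, and without 0.1 µM replicate 3, 1288 rose and 1248 fell. With the outside-gene share as a second term, 9 genes rose and 11 fell. In that fit 99.9% of the 3574 genes kept the sign of their slope, the slopes had a median of 0.852 times their size without the term, and the standard errors had a median of 1.43 times theirs. At an unadjusted p under 0.05 in the edgeR test, 3388 of the 20610 genes had a slope in that fit, against 6639 without the term. The share and log10 concentration have 51.0% of their variance in common, so for most genes the 2 cannot be told apart in these libraries. This holds for every count below, in which at most 1 member of any list was called with the second term.

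**Figure D2:**
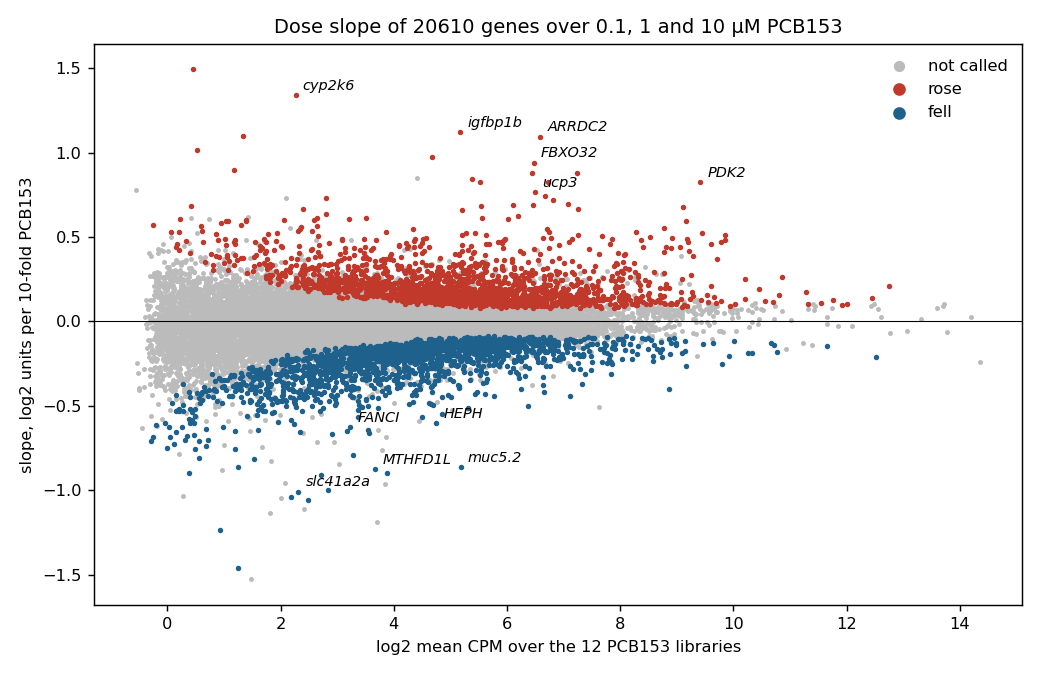
Slope of each of 20610 genes, in log2 units per 10-fold PCB153, against its log2 mean CPM over the 12 exposed libraries. Each point is a gene, red points rose (1774) and blue points fell (1800) at an adjusted p under 0.05, and grey points were not called.

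The named rising genes were the 12 with the largest slope that were also clearly expressed and did not overlap between 10 and 0.1 µM, so the lack of overlap is part of their choice. The largest rise among them was that of the P450 gene cyp2k6, whose values stand with the xenobiotic genes. Next came igfbp1b (slope 1.12 ± 0.17), ARRDC2 (1.09 ± 0.16), retreg1 (0.98 ± 0.17) and FBXO32 (0.94 ± 0.23). The gene igfbp1b, which encodes a secreted protein that binds insulin-like growth factors and is known to rise in fasting, had 14.5, 6.22, 12.1 and 24 CPM at 0.1 µM, 30.8, 20.9, 32.6 and 24.4 CPM at 1 µM and 63.3, 76.9, 42.8 and 82.6 CPM at 10 µM. It showed a 4.73-fold difference (edgeR adjusted p = 0.00225), and the 1 µM libraries overlapped with those of 0.1 µM. Its duplicate IGFBP1 differed 3.14-fold (slope 0.82 ± 0.16, edgeR adjusted p = 0.00858).

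FBXO32, the muscle ubiquitin ligase atrogin-1, had 42.3, 10.8, 31 and 71.4 CPM at 0.1 µM, 114, 44.7, 89.6 and 83.5 CPM at 1 µM and 136, 190.3, 113 and 136 CPM at 10 µM. The value of replicate 2 was the lowest of its group at both 0.1 and 1 µM and the highest at 10 µM. The slope was 0.94 ± 0.23 (edgeR adjusted p = 0.0211), and the adjusted p was 0.0538 without 0.1 µM replicate 3 and 0.0659 without 10 µM replicate 2. The other classic atrophy ligase, trim63a (MuRF1), had 77.2, 37.5, 70.6 and 109 CPM at 0.1 µM, 203, 76.1, 138 and 108 CPM at 1 µM and 223, 319, 205 and 251 CPM at 10 µM. All 10 µM libraries lay above all others (slope 0.88 ± 0.17, edgeR adjusted p = 0.00761). ARRDC2, an arrestin-domain protein, had 34.4, 29.7, 38.8 and 59.6 CPM at 0.1 µM, 99.4, 38.2, 61.3 and 62.8 CPM at 1 µM and 165, 241, 156 and 169.8 CPM at 10 µM. It showed a 4.55-fold difference, with the larger of its steps between 10 and 1 µM (1.5, against 0.67 between 1 and 0.1 µM, log2).

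PDK2 (ENSDARG00000059054), a kinase that shuts off pyruvate dehydrogenase, had 370.2, 171, 334 and 492 CPM at 0.1 µM, 881, 446, 664 and 544 CPM at 1 µM and 977, 1324, 948 and 1029.8 CPM at 10 µM. It differed 3.13-fold (slope 0.82 ± 0.15, edgeR adjusted p = 0.00563), and again replicate 2 was lowest at 0.1 and 1 µM and highest at 10 µM. The mitochondrial carrier ucp3, an uncoupling protein of muscle that rises in fasting in mammals, had 48.8, 43.5, 48.8 and 56.6 CPM at 0.1 µM, 97.7, 53.6, 82.6 and 77.6 CPM at 1 µM and 133, 178, 124 and 133 CPM at 10 µM. No 10 µM library overlapped with any other (slope 0.76 ± 0.08, edgeR adjusted p = 0.000389). PFKFB3, which makes the activator of phosphofructokinase, rose 2.81-fold, retreg1, a receptor for the breakdown of endoplasmic reticulum by autophagy, 3.86-fold, and the kelch protein gene KLHL38 3.13-fold. The gene diabloa, related to the apoptosis activator SMAC, differed 3.39-fold, with 158, 212, 146 and 165 CPM at 10 µM against 39.4, 35.2, 51.8 and 78.9 CPM at 0.1 µM. Its step lay between 10 and 1 µM (2.09, log2), and its adjusted p was between 0.0552 and 0.0752 without any 1 of 0.1 µM replicate 2 or 10 µM replicates 1, 2 and 4.

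**Figure D3:**
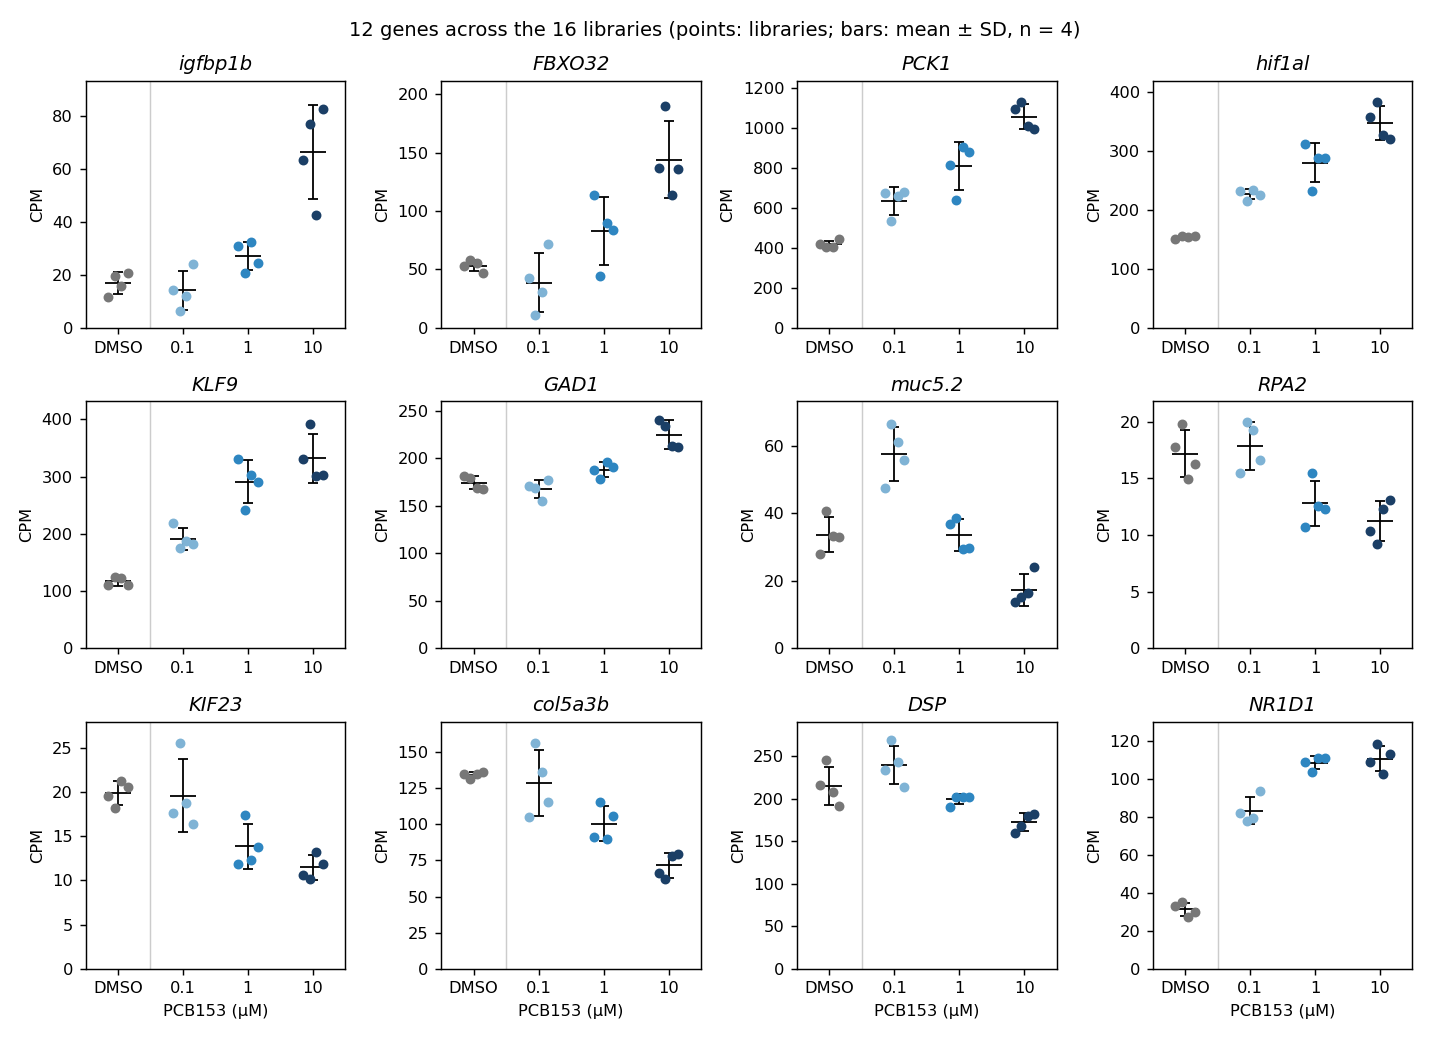
CPM of 12 genes in all 16 libraries, with the DMSO control at the left of each panel and PCB153 at 0.1, 1 and 10 µM to its right. Points are libraries and bars are mean ± SD of 4. NR1D1 and PCK1 are already above DMSO at 0.1 µM, while igfbp1b, FBXO32 and GAD1 are not. The panel DSP shows ENSDARG00000022309.

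Genes that the body uses in fasting rose. Members of this and the later lists that are given with values are mostly the up to 4 of smallest p in their list. Their small p, and with it much of their lack of overlap, follows from that choice. Of 33 tested genes of gluconeogenesis and fasting 18 rose and 2 fell, the median slope was 0.13 against -0.0046 over all genes tested, and no library left out moved the count of rising members by over 1.5 times. PCK1, the rate-limiting enzyme of gluconeogenesis, had 675, 534, 661 and 679.6 CPM at 0.1 µM, 815, 643, 906 and 882 CPM at 1 µM and 1097, 1131, 1013 and 996 CPM at 10 µM. All 10 µM libraries were above all others, and the slope was 0.37 ± 0.05 (edgeR adjusted p = 0.000346). GPT (ENSDARG00000055642), the alanine aminotransferase that feeds amino carbon into glucose, had 16.8, 15.1, 16.6 and 15.3 CPM at 0.1 µM, 23.9, 19.7, 27.3 and 21.9 CPM at 1 µM and 35.3, 36.1, 28.5 and 27.1 CPM at 10 µM. It differed 1.99-fold (slope 0.50 ± 0.05, edgeR adjusted p = 0.000143) and was among the 20 genes still called with the outside-gene share in the fit (slope 0.45, adjusted p = 0.0466). Both IRS2 genes, which encode the insulin receptor substrate, rose, ENSDARG00000037099 1.99-fold and ENSDARG00000075282 1.74-fold. The fasting regulator creb3l3b, a membrane-bound transcription factor of liver, had 11.1, 10.2, 11.9 and 11.7 CPM at 0.1 µM, 13.5, 12.2, 16.2 and 18.7 CPM at 1 µM and 19.5, 19.5, 19.2 and 18.6 CPM at 10 µM (slope 0.38 ± 0.05, edgeR adjusted p = 0.000389). G6PC1, fbp1a, fbp1b, FOXO1, foxo3a and foxo3b were also among the rising members, and GPT2 and PC fell. The falling count was 1 without any 1 of 9 libraries (0.1 µM replicates 1 to 3, all of 1 µM, and 10 µM replicates 2 and 4) and with other scaling, filters or linear concentration.

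The list of fatty acid oxidation also holds kinases of pyruvate dehydrogenase, uncoupling proteins and the receptor PPARD. Of its 33 genes 9 rose (27.3%, against 8.61% of all genes tested) and 2 fell (6.06%, against 8.73%), with a median slope of 0.06. The 9 were ACADVL, CPT1B, both PDK2 genes, PDK4, PPARD, UCP1, UCP2 and ucp3. Of the oxidation enzymes themselves, ACADVL and CPT1B rose and HADHA and EHHADH fell. PPARD, the nuclear receptor that drives fat burning in muscle, averaged 19.8 ± 1.34 CPM at 0.1 µM, 24.8 ± 2.06 CPM at 1 µM and 27.3 ± 0.954 CPM at 10 µM (SD, n = 4 each; slope 0.23 ± 0.04, edgeR adjusted p = 0.00125). PDK4 rose 1.65-fold and UCP2 1.39-fold. The 2 falling members, HADHA and EHHADH, were not called without any 1 of 0.1 µM replicates 2 and 3 and 10 µM replicates 1 and 2, and 4 fell without 0.1 µM replicate 4. Of 33 glycolysis genes 15 rose and none fell (median slope 0.09). Their number was 6 without 10 µM replicate 1, 7 without 10 µM replicate 2 and 8 without 10 µM replicate 4. The muscle phosphofructokinase PFKM had 143, 170.1, 154 and 134 CPM at 0.1 µM, 172, 156, 199 and 162 CPM at 1 µM and 219.5, 221, 254 and 214 CPM at 10 µM, with no overlap between 10 µM and the rest (slope 0.30 ± 0.04, edgeR adjusted p = 0.000476). Lactate dehydrogenase ldhbb rose 1.83-fold, and its call held with the outside-gene share in the fit (slope 0.45, adjusted p = 0.0466). Of 27 genes of fatty acid synthesis and storage 5 rose (18.5%, against 8.61% of all genes tested) and 3 fell (11.1%, near the 8.73% of all genes tested). The rising members numbered 3 without any 1 of 0.1 µM replicates 2 and 3 and 10 µM replicates 1 to 4. The largest of these was LPIN1, the lipin phosphatase of triglyceride synthesis, with 376, 221, 328 and 404 CPM at 0.1 µM, 857, 434, 631 and 555 CPM at 1 µM and 777, 900.2, 661 and 702 CPM at 10 µM (edgeR adjusted p = 0.011). Nuclear genes of oxidative phosphorylation rose in 5 of 90 cases, below the 8.61% of all genes, with 3 without any 1 of the 10 µM libraries and 8 without 1 µM replicate 1, and of 13 mitochondrially encoded genes none was called.

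Targets of hypoxia signalling and of glucocorticoids also rose. Of 34 hypoxia genes 17 rose and 2 fell (EGLN3 and VEGFA), with a median slope of 0.18, and neither of the 2 fell without 0.1 µM replicate 1 or 10 µM replicate 2. The factor hif1al, a hypoxia-inducible factor alpha relative in fish, had 232, 216, 234 and 226 CPM at 0.1 µM, 312, 233, 289 and 288 CPM at 1 µM and 359, 384, 328 and 322 CPM at 10 µM. All 10 µM libraries lay above the other exposed ones (slope 0.31 ± 0.04, edgeR adjusted p = 0.000262). ADM, ANGPTL4, BNIP3, DDIT4, EPAS1, NDRG1 and PDK1 were further rising members, and pfkfb4a rose 1.39-fold. Of 20 glucocorticoid response genes 10 rose and 1 fell (anxa1b), with a median slope of 0.18. KLF9, a Krüppel-like factor induced by glucocorticoids and thyroid hormone, had 219.7, 176, 187 and 182 CPM at 0.1 µM, 332, 241, 302 and 290.1 CPM at 1 µM and 330.1, 393, 302 and 303 CPM at 10 µM. The 1 and 0.1 µM libraries did not overlap, the 10 and 1 µM libraries did, and the slope was 0.40 ± 0.06 (edgeR adjusted p = 0.00135). The glucocorticoid-induced leucine zipper gene tsc22d3 rose 1.47-fold and hsd20b2, an enzyme that clears cortisol in zebrafish, 1.48-fold. FKBP5, a chaperone partner and target of the receptor, had 388, 356, 374 and 322 CPM at 0.1 µM, 504, 374, 433 and 435 CPM at 1 µM and 425, 518, 435 and 412 CPM at 10 µM. The difference was 1.24-fold (slope 0.16 ± 0.05, edgeR adjusted p = 0.0303), and the adjusted p lay between 0.0558 and 0.114 without any 1 of 0.1 µM replicates 2, 3 and 4 and 10 µM replicate 2. Several lists share members: igfbp1b and IGFBP1 stand in those of fasting, hypoxia and growth factors, and PCK1 in those of fasting and glucocorticoids.

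Of 12 thyroid axis genes 4 rose (33.3%, against 8.61% of all genes tested) and duox fell, and on linear concentration 2 rose and none fell. The inactivating deiodinase dio3b had 44.4, 52.2, 47.5 and 40.1 CPM at 0.1 µM, 45.1, 39.4, 57.6 and 43.8 CPM at 1 µM and 97.8, 91.8, 71.9 and 87.5 CPM at 10 µM, with its step between 10 and 1 µM (0.91 log2, against 0.01 between 1 and 0.1 µM). No 10 µM library overlapped with another exposed one (slope 0.47 ± 0.09, edgeR adjusted p = 0.00793). Thyroglobulin TG, the hormone's precursor, rose 1.7-fold, while duox, an oxidase that makes peroxide for hormone synthesis, was 0.465 times its 0.1 µM level at 10 µM. Of 23 genes of the insulin-like growth factor axis 4 rose (17.4%, against 8.61% of all genes tested), the IGFBP1 and IRS2 pairs already named. The 3 that fell (13.0%, against 8.73%) were binding protein genes (2 IGFBP2 genes and IGFBP3). These 3 were reduced to 1 without any 1 of 0.1 µM replicates 2 and 3 and 10 µM replicates 1 and 2, and 8 members rose without 1 µM replicate 3 or 10 µM replicate 3.

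In each list of stress genes more members rose than fell, and those of the unfolded protein response went both ways. Of 51 immediate early and stress growth genes 17 rose and 1 fell (klf2a), with 11 rising without any 1 of 0.1 µM replicates 2 and 3 and 10 µM replicate 1, and 10 without 10 µM replicate 2. Against DMSO, 9 of the 51 were higher in exposed larvae and 16 were lower, where 7.11% of all genes tested were higher and 5.38% lower. A difference in how control larvae were handled or collected can enter this comparison, and was not tested. The summed CPM of the 51 genes averaged 3230 in DMSO, 2671 at 0.1 µM, 2803 at 1 µM and 3451 at 10 µM. Of 23 heat shock chaperones 7 rose, with 3 without 10 µM replicate 1 and 4 without 10 µM replicate 2 or 4. HSP90AA1 (ENSDARG00000024746), a cytosolic chaperone, had 33.5, 39.4, 29.4 and 27.1 CPM at 0.1 µM, 40.5, 29.5, 33 and 33.5 CPM at 1 µM and 83.2, 78.2, 72.7 and 63.2 CPM at 10 µM. It differed 2.33-fold, and its rise lay between 10 and 1 µM (1.13 log2, against 0.07 between 1 and 0.1 µM). Of 29 genes of the unfolded protein response 6 rose and 4 fell, and none of the 4 fell without any 1 of 0.1 µM replicates 1 and 2 and 10 µM replicates 1 and 2. The median slope of this list was -0.03, and 13 of the 29 slopes were positive. Its rising share was 20.7%, against 8.61% of all genes tested, and its falling share 13.8%, against 8.73%. The rising ones included DDIT3, TRIB3 and CHAC1, genes of its stress branch that end in growth arrest and death. CHAC1, which degrades glutathione, had 374, 291, 321 and 402 CPM at 0.1 µM, 548, 328, 451 and 463 CPM at 1 µM and 603, 759.5, 568 and 602 CPM at 10 µM (slope 0.43 ± 0.07, edgeR adjusted p = 0.00246). The falling ones were dnajc3b, CRELD2, SDF2L1 and calr3b, which help proteins fold. Among 35 antioxidant genes 6 rose (17.1%, against 8.61% of all genes tested) and 2 fell (5.71%, against 8.73%). SESN1, a stress protein that restrains growth signalling, rose 2.55-fold. The 6 became 3 without 0.1 µM replicate 2, 10 µM replicate 2 or 10 µM replicate 4, and the 2 were not called without 5 of the 12 libraries.

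Genes of cell division fell. Of 42 DNA replication genes 31 fell and none rose, and of 33 mitosis genes 20 fell and none rose, with a median slope of -0.33 in both lists. FANCI, a DNA crosslink repair gene that stands in neither list and was among the 12 genes with the largest fall, had 12.5, 16.5, 13.7 and 10.8 CPM at 0.1 µM, 6.69, 10.2, 9.48 and 10.1 CPM at 1 µM and 4.32, 4.17, 7.43 and 6.32 CPM at 10 µM. Its fold was 0.42 (slope -0.63 ± 0.09, edgeR adjusted p = 0.000536). As with the rising genes, the lack of overlap between 10 and 0.1 µM is part of the choice of these 12. In the replication list RPA2, a subunit of the protein that coats single-stranded DNA, had 15.5, 19.99, 19.2 and 16.6 CPM at 0.1 µM, 10.7, 15.5, 12.6 and 12.3 CPM at 1 µM and 10.4, 9.19, 12.3 and 13.1 CPM at 10 µM (slope -0.34 ± 0.06, edgeR adjusted p = 0.00212). The replication origin gene ORC1, the DNA polymerase gene POLD1 and the primase gene PRIM1 had folds of 0.617, 0.599 and 0.652. In the mitosis list KIF23, a kinesin of the dividing cell's midbody, had 17.6, 25.5, 18.7 and 16.4 CPM at 0.1 µM, 11.9, 17.4, 12.3 and 13.8 CPM at 1 µM and 10.6, 10.1, 13.3 and 11.9 CPM at 10 µM, and the 10 µM libraries overlapped with those of 1 µM but not with those of 0.1 µM. The anillin gene anln, which builds the cleavage furrow, had a fold of 0.562, separase espl1 one of 0.574 and cyclin CCNF one of 0.529. The second anillin gene anln2, outside the list and among the 12 with the largest fall, had a fold of 0.454.

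The fall in division genes was uneven between libraries of a group. Summed over the 42 replication genes, CPM was 1141, 1696, 1245 and 1076 at 0.1 µM, 838, 1031, 960.0 and 878 at 1 µM, and 752, 657, 994 and 903 at 10 µM. The largest sum was in 0.1 µM replicate 2 and the smallest in 10 µM replicate 2, and the 10 and 1 µM sums overlapped. Without 10 µM replicate 1 the number of falling replication genes was 20, and without 10 µM replicate 2 it was 18. Falling mitosis genes numbered 8 without 10 µM replicate 1 or 2, 10 without 0.1 µM replicate 2 and 11 without 0.1 µM replicate 3. With concentration in µM in place of its logarithm, 5 replication and 6 mitosis genes fell. In whole larvae, fewer dividing cells and less RNA of these genes per cell cannot be told apart, and the same holds for every tissue named below.

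**Figure D4:**
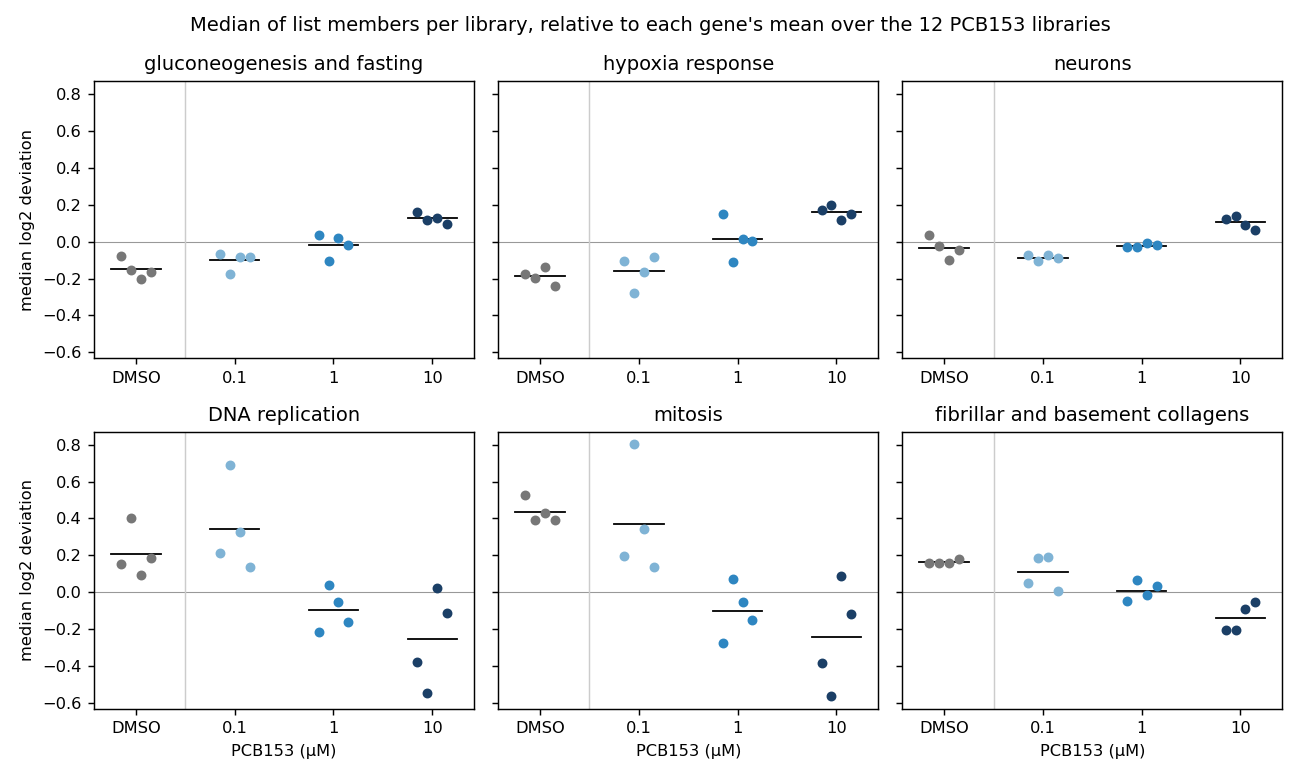
Median over the tested members of 6 gene lists, in each library, of log2 CPM minus the gene's mean over the 12 exposed libraries, with DMSO at the left of each panel. Points are libraries and lines are means of 4. Fasting, hypoxia and neuron lists rise over the 3 concentrations, and replication, mitosis and collagen lists fall, with 0.1 µM replicate 2 highest and 10 µM replicate 2 lowest for replication and mitosis.

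Transcripts of skin and connective tissue fell as well. Of 37 epidermis genes 11 fell and 3 rose (median slope -0.08), with 7 falling on linear concentration. The median step of the list was -0.18 (log2) between 1 and 0.1 µM and 0.04 between 10 and 1 µM. The goblet cell mucin gene muc5.2, which is not in this list and was among the 12 genes with the largest fall, had 47.6, 66.3, 61.1 and 55.7 CPM at 0.1 µM, 36.9, 38.5, 29.5 and 29.8 CPM at 1 µM and 13.6, 15.1, 16.4 and 24 CPM at 10 µM. All 12 libraries stood in falling order, with a fold of 0.302 (slope -0.86 ± 0.08, edgeR adjusted p = 0.000177), and the call held with the outside-gene share in the fit (slope -0.77, adjusted p = 0.0276). Within the list both genes for desmoplakin, which anchors keratin at cell junctions, fell, and ENSDARG00000022309 had 233, 268, 243 and 214 CPM at 0.1 µM, 190.4, 202, 202 and 202 CPM at 1 µM and 159, 168, 180.0 and 182 CPM at 10 µM, again with all 12 libraries in order. The fold of ENSDARG00000076673 was 0.678. Envoplakin evpla, of the same junctions, had a fold of 0.647. The 3 rising members were keratins, of which krt15 rose 1.38-fold, and 1 of the 3 was called without 10 µM replicate 1 or 2. The 3 are 8.11% of the list, against 8.61% rising over all genes tested.

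Of 29 fibrillar and basement membrane collagens 18 fell and none rose (median slope -0.14). The fibril collagen col5a3b had 105, 156, 136 and 115 CPM at 0.1 µM, 91.4, 115, 89.7 and 105 CPM at 1 µM and 66.2, 62.4, 77.8 and 79.6 CPM at 10 µM. The 10 µM libraries did not overlap with any other exposed one, with a fold of 0.558 (slope -0.42 ± 0.06, edgeR adjusted p = 0.000969). The basement membrane chain col4a6 had a fold of 0.797, the hemidesmosome collagen col17a1b 0.716 and COL6A3 0.778. The count was 11 without 0.1 µM replicate 3, 10 without 10 µM replicate 1 and 9 without 10 µM replicate 2. Among 38 cartilage and bone genes 12 fell and 4 rose, and 7 fell without 10 µM replicate 2. The median step of this list was -0.12 (log2) between 1 and 0.1 µM and -0.02 between 10 and 1 µM. COL2A1, the main cartilage collagen, had 581, 674, 644 and 566 CPM at 0.1 µM, 505, 577, 521 and 535 CPM at 1 µM and 451, 431, 513 and 503 CPM at 10 µM (slope -0.19 ± 0.04, edgeR adjusted p = 0.00242), and the cartilage link protein hapln1a had a fold of 0.692. The rising members, 10.5% of the list against 8.61% of all genes tested, were spp1, both aggrecan genes and MATN3. MATN3, the cartilage matrix protein matrilin 3, had 13.5, 13.5, 13.6 and 12.7 CPM at 0.1 µM, 16.7, 15.2, 22 and 14.9 CPM at 1 µM and 25, 25.7, 26.7 and 24 CPM at 10 µM. Its 12 libraries stood in rising order (slope 0.47 ± 0.05, edgeR adjusted p = 0.000143), and acana, an aggrecan gene, rose 1.35-fold.

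Neuronal transcripts rose by small amounts that were close between replicates. Of 42 neuron genes 21 rose and none fell (median slope 0.09), and their summed level was 3925 to 3938 CPM at 0.1 µM, 4006 to 4172 CPM at 1 µM and 4340 to 4582 CPM at 10 µM, with no overlap. GAD1 (ENSDARG00000027419), which makes the inhibitory transmitter GABA, had 170.3, 169, 155 and 177 CPM at 0.1 µM, 188, 178, 196 and 190.3 CPM at 1 µM and 241, 234, 213 and 211 CPM at 10 µM. Its 12 libraries stood in order (slope 0.21 ± 0.03, edgeR adjusted p = 0.00051), as did those of eno2, the neuronal enolase, and vamp2, a synaptic vesicle protein. They rose 1.3-fold and 1.25-fold, and the second GABA enzyme gene GAD2 rose 1.35-fold. In DMSO the summed level of the list was 3914 to 4198 CPM, which overlapped with the 1 and 0.1 µM libraries and not with the 10 µM ones. A summed level without overlap between the concentrations was not particular to neurons, as the thyroid axis list and the glia and myelin list had it too.

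In the eye 24 of 68 photoreceptor genes rose and 1 fell (median slope 0.10), with 15 rising without any 1 of 0.1 µM replicate 3 and 10 µM replicates 1, 2 and 4. The guanylate cyclase activator guca1c had 34.8, 33.5, 33.5 and 40.6 CPM at 0.1 µM, 41, 35.5, 40.03 and 41.2 CPM at 1 µM and 55.6, 58.4, 54.9 and 53.2 CPM at 10 µM. All 10 µM libraries lay above the others (slope 0.32 ± 0.04, edgeR adjusted p = 0.000262). The phosphodiesterase inhibitor subunits PDE6H and pde6ha of cones rose 1.69-fold and 1.5-fold, and rbp4l, a retinol binding protein gene, 1.49-fold. Lens genes rose in 7 of 47 cases (14.9%, against 8.61% of all genes tested). This count ran from 2 without 10 µM replicate 1, 2 or 3 to 20 without 0.1 µM replicate 2. Of the 47 lens slopes 46 were positive, called or not, with a median of 0.25. Summed lens CPM varied within groups, from 3701 to 6936 in DMSO, 4189 to 6679 at 0.1 µM, 3749 to 7082 at 1 µM and 6366 to 8169 at 10 µM. Of 22 glia and myelin genes 6 rose, and 3 did without 0.1 µM replicate 2.

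Of 17 brain and pituitary hormone genes 5 rose (TRH, CRH, POMC, VIP and GAL) and none fell, and 3 rose without 10 µM replicate 2. CRH, the hypothalamic hormone that starts the stress axis, had 4.83, 4.61, 3.97 and 5.47 CPM at 0.1 µM, 6.82, 5.39, 5.36 and 6.16 CPM at 1 µM and 8.04, 7.57, 8.4 and 9.28 CPM at 10 µM. TRH, which drives the thyroid axis, had 4.61, 3.95, 4.73 and 4.57 CPM at 0.1 µM, 5.55, 4.59, 4.82 and 4.73 CPM at 1 µM and 7.91, 7.74, 8.24 and 7.76 CPM at 10 µM. In both genes all 10 µM libraries lay above all other exposed ones, with folds of 1.76 and 1.8 (edgeR adjusted p = 0.000611 and 0.000628). POMC, the precursor of the pituitary hormone ACTH, rose 1.85-fold and VIP 1.35-fold, the VIP call being lost without 10 µM replicate 2 (adjusted p = 0.0728).

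Genes of pancreatic digestive enzymes rose. Of 27 exocrine pancreas genes 13 rose and none fell, with a median slope of 0.39. Trypsinogen prss1 had 1282, 1261, 556 and 671 CPM in DMSO, 607, 452, 588 and 779.8 CPM at 0.1 µM, 801, 593, 1111 and 996 CPM at 1 µM and 1196, 1233, 1190.2 and 1019.8 CPM at 10 µM. Among exposed libraries 10 µM lay above 0.1 µM (slope 0.47 ± 0.10, edgeR adjusted p = 0.00865), whereas 2 of the DMSO libraries were above all exposed ones and the other 2 were within the range of 0.1 µM. The chymotrypsinogen ctrl, the trypsinogen prss59.2 and carboxypeptidase CPB1 likewise had 2 high and 2 low DMSO libraries, and their folds were 2.08, 1.94 and 1.78. The count was 8 without any 1 of 0.1 µM replicates 2 and 3 and 10 µM replicate 1, 6 without 10 µM replicate 2 and 4 on linear concentration. It was also 6 without the 2 libraries with the highest share of reads not uniquely aligned and the lowest summed counts, called here the 2 libraries that stand apart. These are 0.1 µM replicate 3 (57.7% of reads not uniquely aligned) and 1 µM replicate 1 (8069225 summed counts). Dixon's test, given below, flagged neither of these values. The pancreatic enzyme genes form near-identical families, and reads shared between copies cannot be separated in the counts.

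Liver transcripts went both ways. Of 48 genes of liver secreted and liver-enriched proteins 14 fell (29.2%, against 8.73% of all genes tested) and 7 rose (14.6%, against 8.61%), with a median slope of -0.11. The 14 that fell were the apolipoprotein genes APOB, apoa1a, apoa2, apoc2 and apom, the iron and copper carriers tfa and CP, the clotting factors F10 and f2, the plasma proteins serpina1, a2ml, ambp and ITIH2, and TDO2. The apolipoprotein E genes apoea and apoeb and the retinol carrier RBP4 were among the 7 that rose, as were the amino acid breakdown enzymes hpda, HPD and tdo2b. The protease inhibitor gene a2ml had 96.2, 99.2, 94.4 and 91.3 CPM at 0.1 µM, 81.2, 87.5, 68.2 and 76.4 CPM at 1 µM and 67.3, 54.9, 69 and 73.3 CPM at 10 µM (slope -0.26 ± 0.04, edgeR adjusted p = 0.000685), and apom had a fold of 0.65. Tryptophan dioxygenase tdo2b had 29.6, 18.2, 22.4 and 35.9 CPM at 0.1 µM, 56.1, 35.3, 44.7 and 44.3 CPM at 1 µM and 76.4, 68, 64.5 and 65.4 CPM at 10 µM, with no overlap between 10 µM and the rest (slope 0.68 ± 0.09, edgeR adjusted p = 0.00108). The falling count was 5 without 0.1 µM replicate 2, 6 without 10 µM replicate 2, 9 without 10 µM replicate 3 and 7 on linear concentration, and the rising count was 4 without any 1 of 0.1 µM replicates 2 and 3 and 10 µM replicates 1 and 2. Of 58 skeletal muscle genes 12 rose and 3 fell, with no member falling without 10 µM replicate 1 and 1 without 10 µM replicate 2, and the rising count was 6 without 0.1 µM replicate 1, 5 without 10 µM replicate 2 and 7 without 10 µM replicate 3 or 4. The rising share was 20.7%, against 8.61% of all genes tested, and the falling share 5.17%, against 8.73%. The muscle list summed to 84810 to 98485 CPM at 0.1 µM, 89376 to 108474 CPM at 1 µM and 98110 to 108618 CPM at 10 µM. Its group means were 91427, 101220 and 104600 CPM. The muscle sum thus went up in the mean, as the atrophy ligases did, with overlap between the groups. The part of one in the other was not tested.

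Clock genes had mostly small slopes among exposed larvae, although repressors rose more often than the genes tested as a whole. Most repressors were also higher in exposed larvae than in DMSO. Of 22 clock repressor genes 9 rose over the 3 concentrations and none fell (median slope 0.09), while 18 were higher in exposed larvae than in DMSO. The rising share was 40.9%, against 8.61% of all genes tested, and 21 of the 22 slopes were positive. Over all genes tested 7.11% were higher in exposed larvae than in DMSO. A difference in how control larvae were handled or collected can enter comparisons with DMSO, and was not tested. NR1D1, the nuclear receptor REV-ERB alpha that represses the activator genes, had 33, 35.3, 27.3 and 29.8 CPM in DMSO, 82.4, 78, 79.7 and 93.7 CPM at 0.1 µM, 109, 104, 111 and 111 CPM at 1 µM and 109, 118, 103 and 114 CPM at 10 µM. The slope among exposed larvae was 0.20 ± 0.04 (edgeR adjusted p = 0.00314), against a difference of 1.68 ± 0.07 log2 between exposed larvae and DMSO (edgeR adjusted p = 1.31e-13), and the 10 and 1 µM libraries overlapped. The 4 period genes had slopes of 0.05 ± 0.04 (PER1, ENSDARG00000012499), 0.12 ± 0.06 (PER1, ENSDARG00000056885), -0.03 ± 0.04 (PER2) and 0.03 ± 0.04 (PER3), none of them called, although each was higher in exposed larvae than in DMSO by 0.55 to 2.08 log2. The slope of PER2 was 0.06 with the outside-gene share in the fit and that of PER3 was -0.0064 on linear concentration. PER1 ENSDARG00000056885 had 14.5, 16.2, 13 and 13.1 CPM in DMSO, 49.2, 43.9, 50.7 and 65.7 CPM at 0.1 µM, 67.7, 62.9, 71 and 64.6 CPM at 1 µM and 59.3, 69.9, 57.4 and 62.1 CPM at 10 µM.

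The cryptochromes had small slopes. CRY2 had 32.8, 34.8, 35.4 and 38 CPM in DMSO, 59, 58.7, 59.9 and 63.5 CPM at 0.1 µM, 64.5, 66.7, 63 and 64.9 CPM at 1 µM and 66.5, 64.6, 66.2 and 63.9 CPM at 10 µM. Its slope was 0.06 ± 0.03 (edgeR adjusted p = 0.142), and its 0.1 µM libraries stood 0.77 ± 0.05 log2 above DMSO. CRY1 ENSDARG00000011583 was called with a slope of 0.13 ± 0.04 (edgeR adjusted p = 0.0457), and 8 of the 12 libraries, left out singly, ended that call. CRY1 ENSDARG00000045768 was not called (slope 0.08 ± 0.03, edgeR adjusted p = 0.0575), although it was by the DESeq2 Wald test (adjusted p = 0.0227), without 0.1 µM replicate 1 (edgeR adjusted p = 0.0354) and without 10 µM replicate 3 (0.0444). Repressors that did climb were nfil3-6, a bZIP factor that competes with the PAR factors, with 77.5, 73.2, 68.4 and 77.9 CPM in DMSO, 161, 142, 136 and 152 CPM at 0.1 µM, 179.8, 149, 208 and 141 CPM at 1 µM and 312, 317, 258 and 302 CPM at 10 µM. It differed 2.01-fold, and NFIL3 1.57-fold. BHLHE40 and BHLHE41, which repress by binding E-boxes, rose 1.42-fold and 1.36-fold. BHLHE40 at 0.1 µM did not differ detectably from DMSO (-0.08 ± 0.07 log2, edgeR adjusted p = 0.602). Among 6 activator genes bmal2 fell, with a fold of 0.681. Of 12 output and ROR genes 3 rose, the PAR bZIP genes dbpb, tefb and hlfa, of which tefb rose 1.22-fold (adjusted p of 0.0512 to 0.0667 without any 1 of 0.1 µM replicate 3 and 10 µM replicates 1 and 2), and 1 rose without any 1 of 0.1 µM replicate 3 and 10 µM replicates 1 and 2. The repressor count was 5 without 10 µM replicate 1 or 2. The gene dbpb, an output factor, had 26.2, 24.1, 24 and 23.9 CPM in DMSO, 54.1, 44.5, 45.4 and 59 CPM at 0.1 µM, 64.8, 58.4, 59.9 and 59.5 CPM at 1 µM and 65.4, 70.5, 61.7 and 67.3 CPM at 10 µM. Of 8 light response genes none had a called slope, although 7 were higher in exposed larvae than in DMSO.

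Xenobiotic genes showed no uniform direction. CYP1A1, the target of the aryl hydrocarbon receptor, had 34.4, 29.6, 29.8 and 37.6 CPM at 0.1 µM, 33.7, 25.6, 32.6 and 37 CPM at 1 µM and 41.9, 33.1, 34.4 and 29.4 CPM at 10 µM. All groups overlapped (slope 0.04 ± 0.06, edgeR adjusted p = 0.68), and the sign turned with the outside-gene share in the fit (-0.077) and without 10 µM replicate 1 (-0.014). Of 15 genes of that receptor's battery ARNT2, its partner protein, rose 1.2-fold (adjusted p = 0.056 without 10 µM replicate 1) and UGT1A1 fell, with a fold of 0.714. On linear concentration 3 of the 15 rose, and 2 did without 0.1 µM replicate 4. Summed CPM of the 15 was 622 to 649 at 0.1 µM, 617 to 640 at 1 µM and 646 to 679 at 10 µM. In DMSO it was 612 to 633 CPM. NR1I2, which encodes PXR, had 27, 25.6, 28.9 and 36.5 CPM in DMSO, 41, 38.1, 39.3 and 39.8 CPM at 0.1 µM, 56.1, 48.1, 55.8 and 48.6 CPM at 1 µM and 53.4, 56.8, 57.4 and 47.3 CPM at 10 µM. It rose 1.35-fold over the exposed range (slope 0.22 ± 0.04, edgeR adjusted p = 0.00296), and its first step was the larger one (0.39 log2, against 0.05 between 10 and 1 µM). POR, the reductase that supplies electrons to P450 enzymes, rose 1.28-fold.

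Of 42 genes of P450 families 2 and 3 with PXR and POR 6 rose (14.3%, against 8.61% of all genes tested) and 7 fell (16.7%, against 8.73%). Of the 5 names or patterns of the list 1 matched no gene. The largest rise of all named genes was in this list: cyp2k6 had 0.648, 1.22, 0.332 and 1.47 CPM in DMSO, 1.59, 0.736, 1.3 and 1.35 CPM at 0.1 µM, 7.45, 2.25, 3.89 and 4.09 CPM at 1 µM and 10.6, 9.36, 10.3 and 4.79 CPM at 10 µM. The 1 µM libraries were all above those of 0.1 µM, those of 10 and 1 µM overlapped, and the difference was 6.42-fold (slope 1.34 ± 0.18, edgeR adjusted p = 0.000767). Its relative cyp2k16 fell, with 17.5, 18.6, 19.8 and 16.5 CPM at 0.1 µM, 15.1, 17.2, 15.6 and 15.5 CPM at 1 µM and 12.6, 13.7, 14 and 12.8 CPM at 10 µM. The rising count was 3 without 10 µM replicate 2, and the falling count was 4 without 0.1 µM replicate 2 and 2 without 10 µM replicate 1 or 2. Of 50 conjugation enzymes 9 fell, among them 7 UGT genes, and 4 rose, all of them SULT genes, with 4 falling without any 1 of 0.1 µM replicate 2 and 10 µM replicates 1 and 2, and 2 rising without any 1 of 0.1 µM replicates 2 and 3 and 10 µM replicates 1 and 2. The rising share, 8%, was near the 8.61% of all genes tested, and the falling share was 18%, against 8.73%. Genes of transporters were among the 12 genes with the largest fall. The efflux pump gene abcg2b had 12.5, 16.5, 16.5 and 11.9 CPM at 0.1 µM, 8.46, 10.8, 8.55 and 13.4 CPM at 1 µM and 7.84, 2.13, 4.52 and 3.27 CPM at 10 µM (fold 0.334, edgeR adjusted p = 0.00762), and oatx, an organic anion transporter gene, had a fold of 0.399.

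Some sterol genes fell. Of 29 genes of cholesterol synthesis and LDL uptake 6 fell (20.7%, against 8.73% of all genes tested) and 2 rose (6.90%, against 8.61%), with a median slope of -0.18. The receptor gene ldlrb had 23.9, 25.5, 22.9 and 21.9 CPM in DMSO, 36.9, 52.1, 43.8 and 38.2 CPM at 0.1 µM, 25, 43.5, 42.1 and 40.1 CPM at 1 µM and 25, 24.2, 26.9 and 24.6 CPM at 10 µM. At 0.1 µM it was above DMSO (0.86 ± 0.14 log2, edgeR adjusted p = 0.00179) and at 10 µM it overlapped with DMSO. IDI1 and NSDHL, enzymes of the pathway, had folds of 0.783 and 0.722. The IDI1 call was lost without any 1 of 0.1 µM replicates 1 and 2 and 10 µM replicates 1 and 2 (adjusted p of 0.0626 to 0.088), and the NSDHL call without any 1 of 0.1 µM replicate 2 and 10 µM replicates 1, 2 and 4 (adjusted p of 0.0526 to 0.0867). The gene insig1, whose protein holds back sterol synthesis, rose with 38.7, 39.5, 37.1 and 44.2 CPM at 0.1 µM, 48.4, 33.2, 36.8 and 35.6 CPM at 1 µM and 79.5, 79, 63.9 and 77 CPM at 10 µM. It was called for curvature as well (edgeR adjusted p = 0.023), with a step of -0.07 log2 between 1 and 0.1 µM and 0.97 between 10 and 1 µM. The falling count was 1 without 0.1 µM replicate 2 or 10 µM replicate 2, 2 without 10 µM replicate 1 and 3 without 0.1 µM replicate 1 or 10 µM replicate 4. It was 3 on linear concentration, whereas 10 fell without the 2 libraries that stand apart. One of the 2 rising members was called without any 1 of 0.1 µM replicates 2 to 4 and 10 µM replicates 1 and 2.

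The other genes with the largest fall had separate roles. The magnesium transporter gene slc41a2a had 8.84, 10.2, 8.47 and 4.37 CPM at 0.1 µM, 4.92, 7.41, 3.89 and 4.22 CPM at 1 µM and 1.26, 0.936, 3.15 and 1.83 CPM at 10 µM (fold 0.247, edgeR adjusted p = 0.00404). HEPH, the copper oxidase that helps iron leave the gut, had 31, 47.2, 34 and 30.3 CPM at 0.1 µM, 21.8, 36.5, 30.2 and 30.2 CPM at 1 µM and 15.1, 14.3, 19.1 and 11.9 CPM at 10 µM, a fold of 0.434. PPP1R3B, which targets a phosphatase to glycogen to favour its synthesis, had a fold of 0.398, and cfhl2, related to complement factor H, one of 0.431. MTHFD1L, a mitochondrial enzyme of one-carbon metabolism, had 13.2, 44.8, 19.4 and 13.4 CPM at 0.1 µM, 7.57, 12.7, 6.22 and 7.07 CPM at 1 µM and 6.11, 6.04, 8.89 and 7.68 CPM at 10 µM. Its 0.1 µM replicate 2 was the highest library, and its adjusted p of 0.0245 was 0.0594 without 10 µM replicate 1 and 0.0634 without 10 µM replicate 2. DAO, the D-amino acid oxidase, had 9.29, 10.2, 6.79 and 4.44 CPM at 0.1 µM, 1.51, 5.15, 6.76 and 4.35 CPM at 1 µM and 4.25, 0.17, 1.05 and 0.761 CPM at 10 µM, and its adjusted p of 0.0348 was 0.0528 with no filter on low counts and 0.0587 to 0.0959 without any 1 of 0.1 µM replicates 1, 2 and 3 and 10 µM replicates 2, 3 and 4. An annotated 5.8S ribosomal RNA gene, 5_8S_rRNA, had 3.78, 18.7, 14.3 and 9.45 CPM at 0.1 µM, 6.56, 9.74, 5.21 and 7.46 CPM at 1 µM and 2.92, 1.7, 3.07 and 2.97 CPM at 10 µM, in libraries from which ribosomal RNA had been removed.

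**Figure D5:**
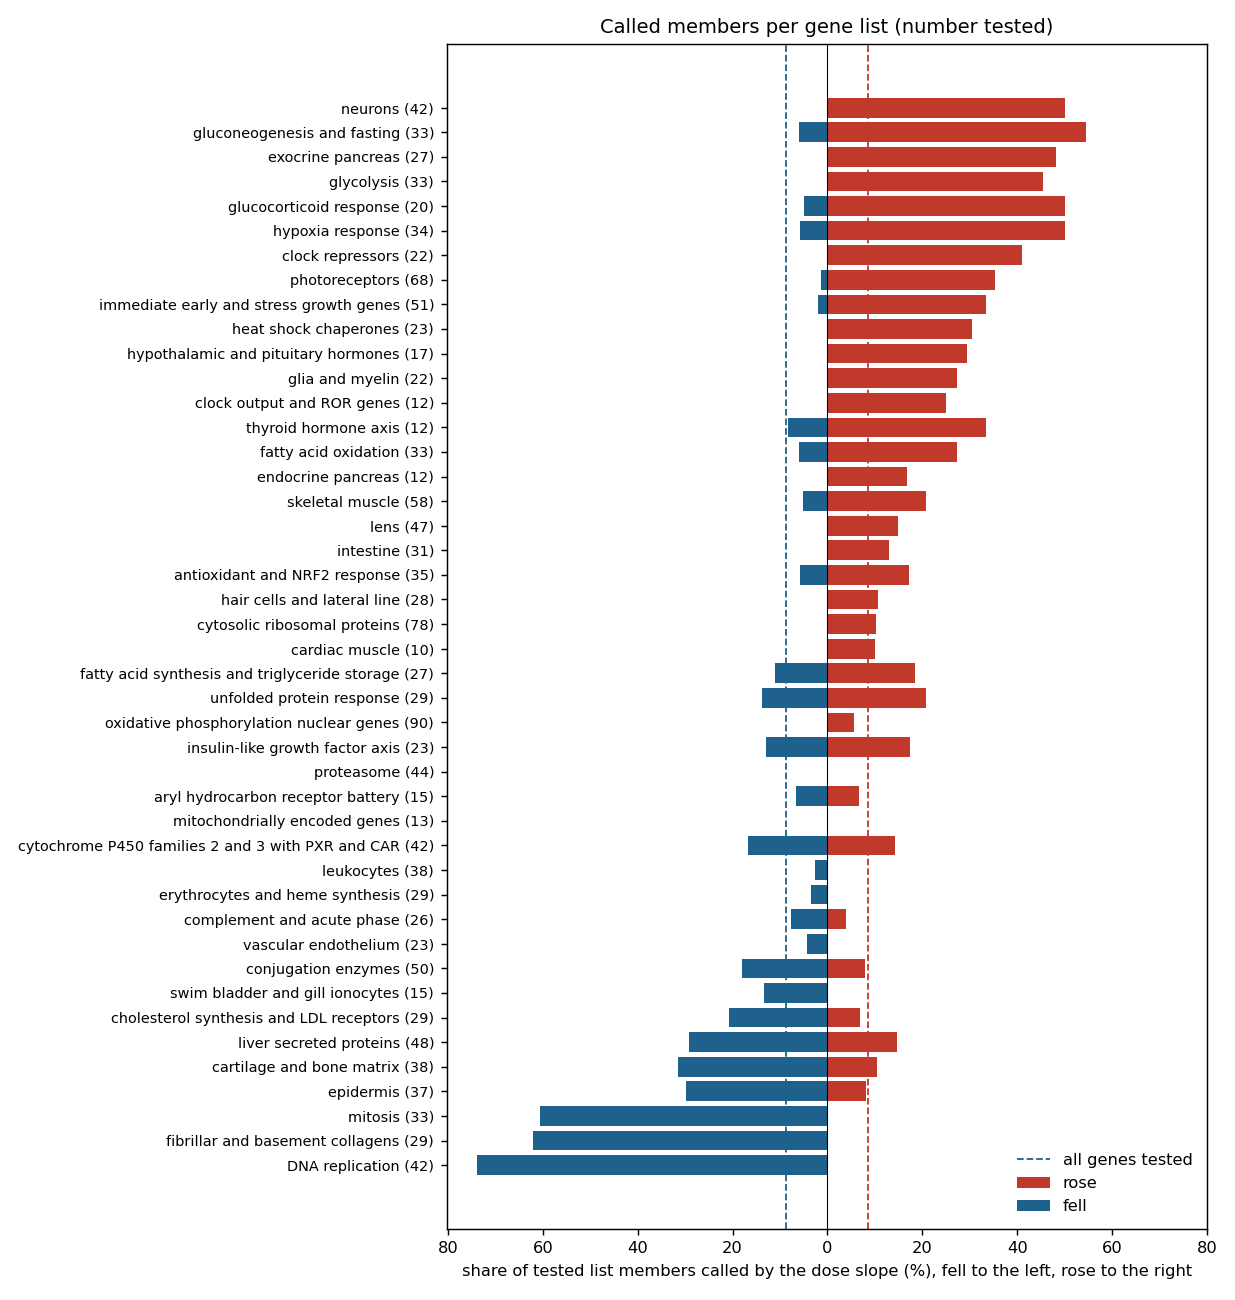
Share of the tested members of each gene list with at least 10 tested genes that rose (red, to the right) or fell (blue, to the left), in percent, ordered by the difference. Numbers in parentheses are genes tested, and dashed lines mark the shares over all genes tested, 8.61% rising and 8.73% falling.

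The remaining lists held few called genes, to be read against 8.61% rising and 8.73% falling over all genes tested. None of 44 proteasome genes was called, and 1 of 29 erythrocyte and heme genes (hbae5), 1 of 38 leukocyte genes (csf1rb) and 1 of 23 endothelial genes (FLT4) fell, with 4 erythrocyte genes without 0.1 µM replicate 4 and 3 leukocyte genes without 1 µM replicate 1. Cytosolic ribosomal protein genes rose in 8 of 78 cases, a count that ran from 1 without 10 µM replicate 2 to 22 without 0.1 µM replicate 4. Of their 78 slopes 75 were positive, called or not, with a median of 0.07. Their summed CPM averaged 49865 in DMSO, 44918 at 0.1 µM, 46457 at 1 µM and 49608 at 10 µM. Of 31 intestine genes 4 rose, of 28 hair cell genes 3 (1 without 10 µM replicate 2 or 4), of 12 endocrine pancreas genes 2 and of 10 cardiac genes 1. Of 26 complement genes 1 rose and 2 fell, of 15 ionocyte genes 2 fell (none without any 1 of 10 µM replicates 1, 3 and 4), and of 3 estrogen response genes none was called. Without 10 µM replicate 2 the calls of klf2a, hbae5, csf1rb, FLT4, the cardiac gene and the rising complement gene were all lost.

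Linear concentration, which sets the 10 µM libraries against the rest, lowered several other counts by over 1.5 times. On that scale 7 cartilage and bone genes fell, 3 P450 genes, 3 genes of fatty acid synthesis, 2 conjugation enzymes and 1 intestine gene rose, and no gene of the unfolded protein response or of the growth factor axis fell, while 9 oxidative phosphorylation genes rose. The calls of 17 genes given with values were lost on it (adjusted p of 0.0547 to 0.259), which are apom, cfhl2, CPB1, CRY1 ENSDARG00000011583, duox, FBXO32, FKBP5, KLF9, LPIN1, MTHFD1L, NR1D1, NR1I2, oatx, POLD1, POR, PRIM1 and tefb. Without the 2 libraries that stand apart 13 mitosis genes and 1 gene of the unfolded protein response fell, and 7 muscle genes, 4 ribosomal protein genes, 4 heat shock chaperones, 4 liver genes, 3 lens genes, 3 P450 genes, 3 genes of fatty acid synthesis and 2 conjugation enzymes rose. The calls of CRY1 ENSDARG00000011583, DAO, diabloa, FBXO32 and MTHFD1L were then lost (edgeR adjusted p of 0.0503 to 0.062). The DESeq2 Wald test called 17 ribosomal protein genes, 17 lens genes and 8 genes of the growth factor axis as rising.

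The control libraries, which no slope used, place these changes. Averaged over the 3 concentrations, 1466 genes were higher in exposed larvae than in DMSO (7.11% of the genes tested) and 1109 were lower (5.38%), together 2575 (12.5%), and the lower count was 672, 603 and 715 without DMSO replicates 2, 3 and 4. Of the 1774 genes that rose with concentration 454 (25.6%) were higher in exposed larvae and 39 (2.2%) were lower. Of the 1800 that fell 239 (13.3%) were lower and 47 (2.61%) were higher. The slope and this difference share the exposed libraries, so the shares are given as a description. At 0.1 µM alone, 79 of the rising genes were above DMSO and 76 below, and 113 of the falling genes were above DMSO and 4 below. Genes with a falling slope are by that choice higher at 0.1 µM than at 10 µM, and rising genes lower. These counts therefore follow in part from the choice, and the shares over all genes tested were not counted. The mucin gene muc5.2 was above DMSO at 0.1 µM (0.78 ± 0.16 log2, edgeR adjusted p = 0.0138) and below it at 10 µM (-0.96 ± 0.17 log2, edgeR adjusted p = 0.00177), with 28, 40.5, 33.2 and 32.9 CPM in DMSO. FKBP5, dio3b and guca1c were above DMSO at every concentration, and FKBP5 had 138, 159, 155 and 149 CPM in DMSO. Its 0.1 µM libraries stood 1.26 ± 0.09 log2 above DMSO and its 10 µM libraries 1.57 ± 0.09 log2. For igfbp1b, FBXO32, PDK2 and ARRDC2 the 0.1 µM libraries did not differ detectably from DMSO (edgeR adjusted p of 0.773, 0.651, 0.527 and 0.113), and the 10 µM libraries were higher (edgeR adjusted p of 0.00129, 0.0291, 0.00799 and 0.00662).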

How the data were processed

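Total RNA of whole larvae was sequenced strand-specifically after removal of ribosomal RNA (Ribo-Zero Gold), per the labels' protocols. The deposited files hold, for each of 16 libraries, raw read counts per Ensembl gene, with no normalization, made by the authors with HTSeq on GRCz10 after Trimmomatic, per the submitters' processing notes, which also name edgeR and give no versions. Reverse-strand union counting is stated in the names of the files. Neither aligner nor annotation release is given in the sources used here, so gene coordinates and sequences are not printed. Reads in the 5 summary lines entered no test. Those in no annotated gene, which may lie in introns, made up 31.4% to 40.4% (the outside-gene share) of uniquely aligned reads.

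Groups and replicate numbers came from the labels. Genes with at least 1 CPM in at least 4 of the 12 exposed libraries were kept (20610 of 32105). TMM scaling and robust quasi-likelihood F-tests of edgeR 4.0.16 in R 4.3.3 gave the slope on log10 concentration, coded -1, 0 and 1, and, from group means, the steps, the curvature (1 µM minus the mean of the other 2) and, over all 16 libraries, differences from DMSO, each adjusted by Benjamini-Hochberg over all genes tested, with 0.05 as the threshold. Standard errors are the log2 change divided by the square root of F. CPM values use TMM-scaled library sizes. The common biological coefficient of variation was 0.0944. Library measures were tested by exact permutation over the 34650 arrangements. The scripts were tested on simulated counts.

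Genes named are the 12 with the largest slope in each direction among called genes with at least 5 CPM in the higher of 10 and 0.1 µM, no overlap between these groups and a symbol other than a clone name, up to 4 members of each of 47 gene lists with the smallest p, and chosen clock, P450 and receptor genes. Called members of a list named without values, and summed list levels, were added after their values were seen. The lists hold 1137 names or patterns, of which 158 matched no gene. They, and the choice of the slope, were made with earlier results of these data known. Symbols came from a table that names 26269 of the identifiers, many in human form, and reads shared by duplicates cannot be separated. One gene is not reported here. The alternatives were DESeq2 1.42.0 scaling and Wald test, other filters, linear concentration, group means, the replicate number as a block, the outside-gene share as covariate, each library left out and, added after seeing the data, the 2 libraries that stand apart left out. Motif counts in promoters were not run, because promoter sequences were not used here. Replicates of a group differed by 3.19 to 12.9 times the counting noise (chi-square per degree of freedom over genes), so none was a repeat of another. The largest value was that between 0.1 µM replicates 2 and 4.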

Additional observations from a re-analysis of the deposited data

Results flagged for a closer look

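In 468 groups of 4 libraries, that is the 4 groups for each of 111 genes and 6 library measures, the highest or the lowest library was set against the other 3 by Dixon's test at the 95% level, which chance alone passes in about 5% of groups. It stood apart in 21. No explanation was tested for any of them.

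Among 10 µM libraries, replicate 2 had 241 CPM of ARRDC2, against 156 to 169.8 CPM in the others, 179 CPM of IRS2 ENSDARG00000037099, against 142 to 146 CPM, and 1.70 CPM of 5_8S_rRNA, against 2.92 to 3.07 CPM. Replicate 3 had 63.9 CPM of insig1, against 77.0 to 79.5 CPM. Among 1 µM libraries, replicate 1 had 190.4 CPM of DSP ENSDARG00000022309, against 202 CPM in each of the others after rounding, and replicate 3 had 122.7 CPM of eno2, against 108 to 110.1 CPM. The top 10 genes took 12.2% of the counts of 1 µM replicate 3, against 13.1% to 13.3% in the others.

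Among 0.1 µM libraries, replicate 2 had 27.1 CPM of espl1, against 15.9 to 17.5 CPM in the others, 168 CPM of GAD2, against 154 to 156 CPM, and 534 CPM of PCK1, against 661 to 679.6 CPM. Replicate 4 had 12.7 CPM of MATN3, against 13.5 to 13.6 CPM, 394 CPM of pde6ha, against 287 to 304 CPM, and 137 CPM of tsc22d3, against 118 to 121 CPM.

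Among DMSO libraries, replicate 1 had 599 CPM of COL2A1, against 629 to 634 CPM in the others, 26.1 CPM of dbpb, against 23.9 to 24.1 CPM, and 41.5 CPM of PFKFB3, against 44.0 to 44.3 CPM. Replicate 2 had 13.8 CPM of anln2, against 12.6 to 12.7 CPM, 248 CPM of BHLHE40, against 225 to 229 CPM, 42.9 CPM of IDI1, against 47.6 to 48.3 CPM, and 10.7 CPM of slc41a2a, against 5.91 to 6.63 CPM. Replicate 3 had 23.0 CPM of NFIL3, against 25.7 to 26.1 CPM.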

How the results depend on the processing

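Other scaling, tests and filters moved the counts of rising (1774) and falling (1800) genes by less than 1.5 times. With the outside-gene share as covariate 9 rose and 11 fell, all of them among those called without it. Leaving out single libraries gave 981 to 1987 rising and 872 to 2129 falling genes, 12 to 95 (46 with all libraries) and 4 to 27 (14) genes with 1 µM above or below the line, and 1020 to 1691 (1466) higher and 603 to 1511 (1109) lower genes in exposed larvae than in DMSO. Without the 2 libraries that stand apart, 0.1 µM replicate 3 and 1 µM replicate 1, the curvature counts were 19 and 8. With the replicate number as a block 1662 genes rose and 1600 fell. Same-numbered libraries of different groups deviated together in few cases (correlations of -0.23 to 0.30 in 12 pairs, 2 over 0.1), so the numbers were not taken to pair them. Under the block the calls of DAO (adjusted p = 0.0707) and diabloa (0.0618) were lost, 2 lens genes rose in place of 7, and no fatty acid oxidation gene fell in place of 2 and 1 gene of the unfolded protein response in place of 4. With no filter on low counts 3 lens genes rose, and 2 genes of the unfolded protein response fell with none or with another filter. Signs turned for CYP1A1 with the covariate (-0.077) and among the fits without single libraries (-0.014 without 10 µM replicate 1, up to 0.078 without 0.1 µM replicate 4), for PER2 with the covariate (0.060) and for PER3 on linear concentration (-0.0064), none of them called. Of 111 genes given with values 104 were called, 93 without each library in turn, 104 by DESeq2, 102 with the block and 3 with the covariate, and the cause was not tested. Library depth limits genes near 1 CPM, where 4 replicates leave small folds undetected.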
